A study of Mus musculus with 4 samples.

Results

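The Cyp3a cytochromes of mouse liver were followed in 4 whole-liver RNA samples from male first-generation hybrids of AJ and B6, a pair of inbred mouse strains, crossed in both directions. The family was taken as 6 genes, Cyp3a11, Cyp3a13, Cyp3a16, Cyp3a25, Cyp3a41a and Cyp3a44, and a probe set was counted as a member where the platform annotation gave it exactly 1 gene symbol and that symbol was one of these. By this rule 5 of the 6 genes had a probe set, 1 each, out of 18193 genes with a probe set of their own and 45037 non-control probe sets on the array. None of the member probe sets has a suffix _s_at or _x_at, the marks of probes shared between transcripts. The absence of a suffix does not show that a probe set is specific, since the probe set of Cyp3a41a described next has none either. Whether close family transcripts also bind the member probe sets was not tested. Cyp3a41a was the gene without a probe set of its own. The only probe set annotated to it is annotated equally to its near-identical neighbour Cyp3a41b, so it stands for neither gene alone; its values are given separately and are not counted among the members.

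The AB6F1 mice (n = 2) had AJ mothers and B6 fathers. The B6AF1 mice (n = 2) had B6 mothers and AJ fathers. All mice were 9 months old, ate chow and received no treatment; the series concerns nonalcoholic fatty liver disease. The members lie on chromosome 5, an autosome, so that mice of both crosses carry a copy of each gene from each strain and differ in which parent gave it. Differences are given as AB6F1 minus B6AF1 on the log2 scale of the array signal, and the comparison asks whether reversing the cross went with a change in Cyp3a transcripts. The sample identifiers of the crosses do not interleave, so cross and any batch of collection cannot be told apart.

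Cyp3a enzymes are haem monooxygenases of the endoplasmic reticulum that oxidise steroids, bile acids and a large share of drugs, and they take electrons from cytochrome P450 reductase and cytochrome b5. Their genes are classic targets of the nuclear receptors PXR (Nr1i2) and CAR (Nr1i3), which pair with RXR-alpha (Rxra), and they need the hepatocyte factor HNF4-alpha (Hnf4a). In mouse liver Cyp3a11 is the main drug-inducible form, Cyp3a16 is known from the fetal and newborn period, and Cyp3a41 and Cyp3a44 are predominantly expressed in females, a pattern that depends on how growth hormone is secreted.

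In the RefSeq annotation of mouse assembly GRCm38.p6, 4 of the 5 members measured belong to a run of neighbouring genes on chromosome 5 in the order Cyp3a57, Cyp3a16, Cyp3a41b, Cyp3a41a, Cyp3a44, Cyp3a11, Cyp3a25 and Cyp3a59, with pseudogenes and a few other annotated genes between them. Cyp3a13 lies apart on the same chromosome, with 208 annotated genes between it and Cyp3a57. The 250 bases before the annotated start of 4 of these genes, from RefSeq, are shown because they set the female-predominant Cyp3a41a and Cyp3a44 beside the fetal Cyp3a16 and the inducible Cyp3a11. They run 5′ to 3′ on the gene's strand, and capitals mark matches to the motifs TGTTTAC (FOXA), AGGTCA (a nuclear receptor half-site) and CAAAGTCCA (HNF4).
Cyp3a41a, chr5:145720137-145720386, minus strand: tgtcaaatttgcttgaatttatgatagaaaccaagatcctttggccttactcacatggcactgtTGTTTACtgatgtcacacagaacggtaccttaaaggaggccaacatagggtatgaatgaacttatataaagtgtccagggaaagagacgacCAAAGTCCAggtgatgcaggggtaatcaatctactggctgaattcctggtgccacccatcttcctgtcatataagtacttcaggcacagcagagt
Cyp3a44, chr5:145805875-145806124, minus strand: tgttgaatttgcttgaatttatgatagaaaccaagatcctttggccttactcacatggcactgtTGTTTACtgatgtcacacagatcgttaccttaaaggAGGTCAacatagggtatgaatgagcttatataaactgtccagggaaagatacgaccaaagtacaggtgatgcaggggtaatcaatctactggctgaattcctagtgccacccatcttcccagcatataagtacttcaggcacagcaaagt
Cyp3a16, chr5:145469724-145469973, minus strand: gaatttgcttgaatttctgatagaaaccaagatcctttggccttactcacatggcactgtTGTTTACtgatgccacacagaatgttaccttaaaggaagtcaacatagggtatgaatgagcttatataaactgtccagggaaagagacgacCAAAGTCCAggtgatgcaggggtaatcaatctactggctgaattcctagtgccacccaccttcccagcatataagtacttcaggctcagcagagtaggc
Cyp3a11, chr5:145879855-145880104, minus strand: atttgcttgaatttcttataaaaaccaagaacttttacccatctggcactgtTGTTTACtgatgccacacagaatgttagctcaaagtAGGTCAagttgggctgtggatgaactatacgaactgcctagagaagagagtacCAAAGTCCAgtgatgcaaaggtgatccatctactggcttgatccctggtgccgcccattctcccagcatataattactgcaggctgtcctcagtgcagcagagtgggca

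The windows of Cyp3a41a and Cyp3a41b were 99.6% identical, with 1 substitution in 250 aligned bases. Cyp3a44 was 94.4% identical to Cyp3a41a and 95.9% to Cyp3a16, whereas Cyp3a11 was 74.8% identical to Cyp3a41a. The windows of Cyp3a25 and Cyp3a13 were 54.7% and 55.6% identical to that of Cyp3a11. Both strands were searched, and no 2 of the matches overlap. The FOXA motif was in 5 of the 7 family windows (Cyp3a41b included), all but those of Cyp3a13 and Cyp3a25, against 3.2% of all 32851 promoter windows of this length. The HNF4 motif was in 4 of the 7, those of Cyp3a11, Cyp3a16, Cyp3a41a and Cyp3a41b, against 0.4% of all windows. The half-site AGGTCA was in 3 of the 7, those of Cyp3a11, Cyp3a25 and Cyp3a44, against 14.0% of all windows. The STAT5 motif TTCNNNGAA was in 0 of the 7 windows, against 7.0% of all. The windows of Cyp3a16, Cyp3a41a, Cyp3a41b and Cyp3a44 were 93.9% to 99.6% identical to one another. The family counts are therefore not of independent windows and do not measure enrichment over all windows. These are matches of letters in the reference genome and say nothing of the factors or of the AJ alleles.

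No member passed the test between the crosses. With limma across 11749 genes and Benjamini-Hochberg adjustment at 0.05, 0 of the 4 members above the filter on dim genes passed, and 0 of 4 had an unadjusted p under 0.05. Over all genes tested 25 passed, or 0.213%, and 9.72% had an unadjusted p under 0.05. A share of 0 of 4 is therefore near the background. The fifth member with a probe set, Cyp3a16, lay below the filter, a signal of 60.9, and was not tested.

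Cyp3a11, the PXR-inducible form, had signals of 44002 and 40511 in AB6F1 livers, against 42267 and 49488 in B6AF1 livers. The crosses overlapped, since B6AF1 replicate 1 lay between the AB6F1 livers. Its mean was 42260 ± 2469 in AB6F1 and 45880 ± 5106 in B6AF1 (SD, n = 2 each). On the log2 scale it differed by -0.12 ± 0.13 (SE), with a limma adjusted p of 0.807. The 95% interval ran from -0.42 to 0.19, or from 0.745-fold to 1.14-fold.

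Cyp3a25, an adult liver form that neighbours Cyp3a11, had signals of 31989 and 31314 in AB6F1, against 32693 and 37140 in B6AF1. Both AB6F1 livers lay below both B6AF1 livers, but by little. The log2 difference was -0.14 ± 0.12 (SE; limma adjusted p = 0.747), with a 95% interval from -0.42 to 0.15. It was the 1 member of 4 tested whose crosses did not overlap, against 41.2% of all genes tested, or 18.7% counting those with AB6F1 lower. The brightest probe set of any kind had 57982 to 67939 over the 4 arrays, so Cyp3a11 and Cyp3a25 lie high on the scale. Whether this compressed their differences was not tested. The differences varied with array scaling. With quantile normalization they were -0.012 for Cyp3a11 and -0.055 for Cyp3a25. With arrays centred on their medians they were -0.25 and -0.28. By limma neither gene passed under either scaling.

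Cyp3a13, a form known from both intestine and liver, had signals of 6876 and 4926 in AB6F1, against 5062 and 5702 in B6AF1. The AB6F1 livers lay on either side of both B6AF1 livers. The log2 difference was 0.12 ± 0.18 (SE; limma adjusted p = 0.860), with a 95% interval from -0.30 to 0.53. It was -0.021 when each array was centred on its median, and -0.13 without AB6F1 replicate 1.

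Cyp3a44, the female-predominant member with a probe set of its own, had signals of 231.5 and 107.7 in AB6F1, against 141.1 and 102.9 in B6AF1. AB6F1 replicate 1 was the highest liver, and AB6F1 replicate 2 lay between the B6AF1 livers. The mean was 170 ± 87.5 in AB6F1 and 122 ± 27.0 in B6AF1 (SD, n = 2 each). Its log2 difference of 0.39 ± 0.45 (SE; limma adjusted p = 0.810) had the widest 95% interval of the members tested, from -0.67 to 1.45. Leaving out AB6F1 replicate 1 gave -0.16, and leaving out AB6F1 replicate 2 gave 0.94.

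Cyp3a16, the fetal and newborn form, had signals of 16.7 and 17.3 in AB6F1, against 32.5 and 27.6 in B6AF1. All 4 values lay below the filter, where no detection calls were used, so no fold is given. Its crosses did not overlap, with both AB6F1 livers lower, as was so for 18.7% of the genes above the filter. Tested without any filter over 18193 genes, it did not pass (limma adjusted p = 0.844).

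The probe set shared by Cyp3a41a and Cyp3a41b had signals of 2055 and 1154 in AB6F1, against 502 and 438 in B6AF1. Both AB6F1 livers were brighter than both B6AF1 livers, and the AB6F1 livers were themselves 1.78-fold apart. Its mean was 1604 ± 637 in AB6F1 and 470 ± 45.0 in B6AF1 (SD, n = 2 each). The log2 difference was 1.71 ± 0.27 (SE), or 3.28-fold with a 95% interval from 2.13-fold to 5.06-fold. In the fit over 22519 probe sets it did not pass (limma adjusted p = 0.0937; unadjusted p = 0.000274). Of the 5 family probe sets above the filter it was the 1 with an unadjusted p under 0.05, against 8.91% of all probe sets, and 0 of the 5 passed after adjustment, against 0.16%. AB6F1 lay wholly above B6AF1 for 22% of all probe sets, and 0.573% of them had a higher log2 difference than this one.

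The call for the shared probe set depended on the processing. It passed with arrays centred on their medians (limma adjusted p = 0.0457). It also passed with a block for replicate number (limma adjusted p = 0.0023), although the labels link no numbers. It did not pass when variances were moderated without the intensity trend (limma adjusted p = 0.509). With an array left out 1 liver remains in a cross, so no call on this probe set is given for those fits. The log2 difference of the shared probe set ran from 1.30 without AB6F1 replicate 1 to 2.13 without AB6F1 replicate 2. It was positive under every alternative run.

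**Figure D1:**
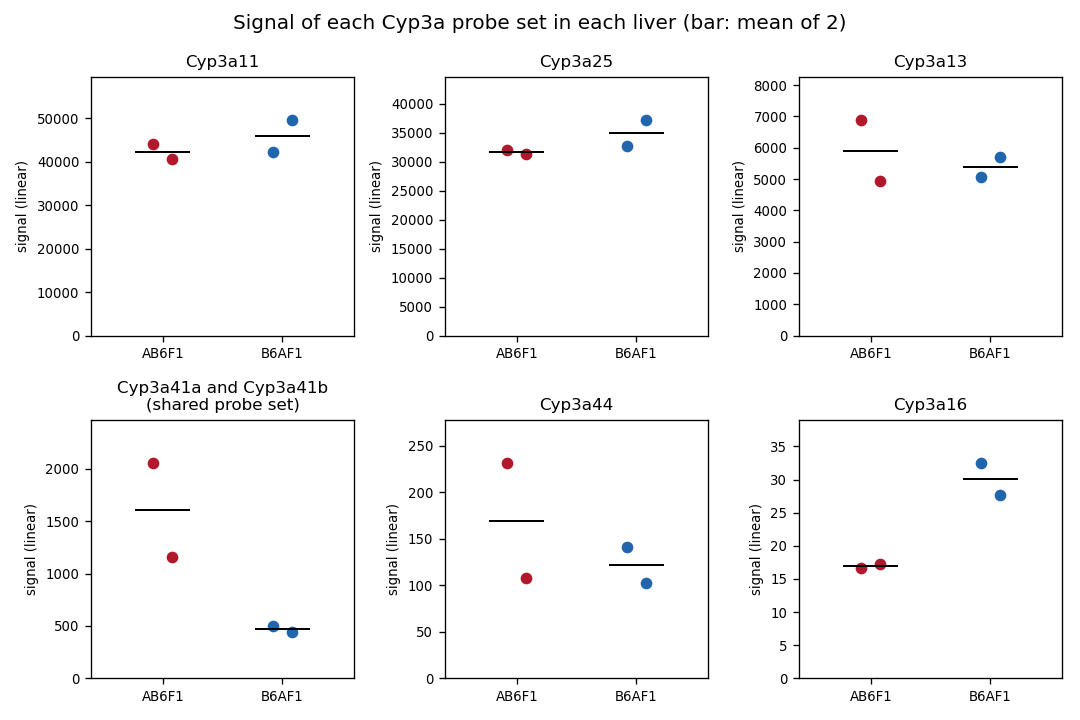
Linear array signal of the 5 member probe sets and the shared probe set of Cyp3a41a and Cyp3a41b, each panel on its own axis from 0. Points are single livers (AB6F1 in red, B6AF1 in blue, n = 2 each) and bars are means; the AB6F1 livers lie above both B6AF1 livers in the panel of the shared probe set alone, at 2055 and 1154.

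**Figure D2:**
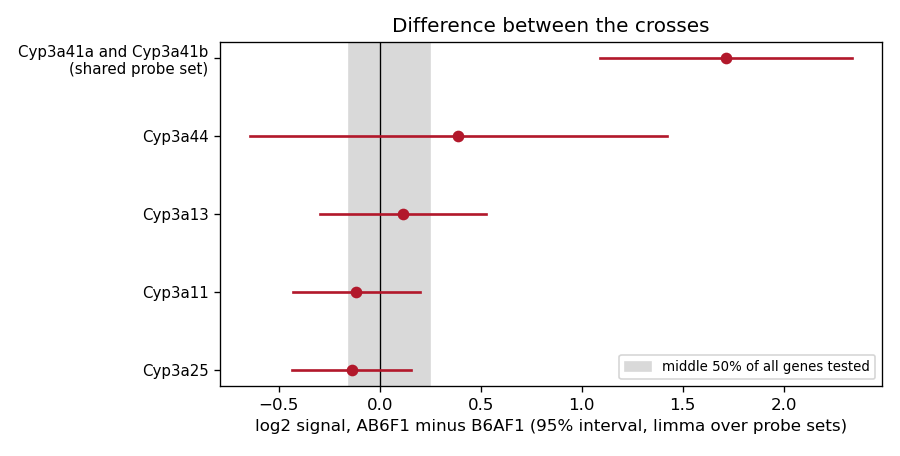
Log2 difference, AB6F1 minus B6AF1, of the 5 family probe sets above the filter, with 95% intervals from limma fitted over all probe sets. The grey band spans the middle 50% of all genes tested, from -0.15 to 0.25; the interval of the shared probe set lies wholly above 0, from 1.09 to 2.34.

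Ordered by log2 difference, the shared probe set came first, followed by Cyp3a44, Cyp3a13, Cyp3a11 and Cyp3a25. Neighbours in this order were compared within each array, so that array scaling cancels. The order was taken from the same differences, so the sign of each comparison was fixed by it. The shared probe set exceeded Cyp3a44 by 1.32 in its log2 difference, and the livers of the crosses did not overlap (exact permutation p = 0.333, two-sided, the smallest that 2 against 2 can give). The same p was reached by Cyp3a13 over Cyp3a11, at 0.23. Cyp3a44 over Cyp3a13, at 0.27, and Cyp3a11 over Cyp3a25, at 0.02, overlapped between the crosses (exact permutation p = 0.667 each). These 4 comparisons cannot pass a threshold of 0.05 in this design, before or after adjustment.

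The livers within a cross also differed by member. The 2 AB6F1 livers were 1.02-fold apart for Cyp3a25 and 1.09-fold for Cyp3a11, but 1.40-fold for Cyp3a13, 1.78-fold for the shared probe set and 2.15-fold for Cyp3a44, with replicate 1 the higher in each. The B6AF1 livers were 1.13-fold to 1.17-fold apart for Cyp3a11, Cyp3a13, Cyp3a25 and the shared probe set, and 1.37-fold for Cyp3a44. For each of the 4 members tested, the B6AF1 livers were further apart than the crosses. The folds of AB6F1 over B6AF1 were 0.923 for Cyp3a11, 1.08 for Cyp3a13, 0.908 for Cyp3a25 and 1.31 for Cyp3a44. The AB6F1 livers were further apart than the crosses for Cyp3a13 and Cyp3a44, and about as far apart for Cyp3a11.

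Tissue markers on the arrays are set beside the bright members. Hepatocyte markers such as albumin (Alb) and transthyretin (Ttr) were measured in every liver, with a summed signal of 515200 and 495200 in AB6F1 and of 522700 and 595000 in B6AF1. All 13 tested had a negative log2 difference, with a median of -0.12 against 0.02 for all genes; by limma 0 of 13 passed, or had an unadjusted p under 0.05. Cyp3a11 and Cyp3a25, at -0.12 and -0.14, lay close to that median. Pericentral hepatocyte genes, the zone in which drug-metabolising cytochromes are richest, had a median of -0.28 over 13 tested, 11 of them negative. By limma 6 had an unadjusted p under 0.05, against 9.72% of all genes. Among these 6 was Rhbg, which was higher in AB6F1, at 0.89. Glul was also higher, at 0.45, but was not among the 6. The 1 that passed, where 0.0766% of all genes passed as lower, was the cytochrome Cyp1a2, which fell by 1.01 on the log2 scale. Periportal genes also had a median of -0.28, with 9 of 10 negative and 0 past limma (2 with an unadjusted p under 0.05). The highest sum of hepatocyte markers was that of B6AF1 replicate 2, which also had the brightest single signal of the arrays, 67939. Fewer hepatocytes, less RNA per hepatocyte and array scaling at the bright end cannot be told apart here, and none was tested. With arrays centred on the hepatocyte markers, an alternative added after the data were seen, the log2 difference was 0.053 for Cyp3a11 and 0.029 for Cyp3a25, neither past the test, while the shared probe set was at 1.88 and passed (limma adjusted p = 0.0191).

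Macrophage and stellate cell markers lay on the other side. All 11 macrophage markers tested were positive, with a median of 0.77 and summed signals of 17690 and 11220 in AB6F1 and of 7335 and 10260 in B6AF1. By limma 0 of these 11 passed and 8 had an unadjusted p under 0.05, against 9.72% of all genes. Marco and Timd4 lay below the filter. Of 11 stellate cell markers 10 were positive, with a median of 0.73 and sums of 14780 and 17940 in AB6F1 and of 11390 and 10650 in B6AF1. Col3a1 and Col1a2, fibrillar collagens, were the 2 that passed, where 0.136% of all genes passed as higher. By limma 7 of the 11 had an unadjusted p under 0.05, against 9.72% of all genes. Among the 7 was Col1a1, whose mean log2 signal in B6AF1 lay below the filter. The part of these cells in the Cyp3a values was not tested. Cyp3a13 is also an intestinal gene. Of 9 gut markers with a probe set, Vil1, Lct, Cdx1, Cdx2, Slc5a1 and Muc2 had a mean log2 signal below the filter, though single livers reached 126.6 for Vil1, 90.6 for Slc5a1 and 88.1 for Cdx2. Fabp2, Lgals4 and Alpi were tested and 0 of these 3 passed limma or had an unadjusted p under 0.05. Fabp2 was bright, with 5542 and 16496 in AB6F1, against 8868 and 8232 in B6AF1. Lgals4 and Alpi reached at most 181.9 in any liver. The part of gut RNA in the Cyp3a13 values was not tested.

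Regulators of the family did not pass the test. Of 14 regulators listed, 12 were tested, 5 higher and 7 lower in AB6F1, with a median of -0.15. By limma 0 passed, and 2 had an unadjusted p under 0.05. PXR (Nr1i2) had signals of 509.2 and 619.1 in AB6F1, against 493.8 and 577.1 in B6AF1. The livers of the crosses interleaved, and PXR was at 0.07 ± 0.19 (log2, SE; limma adjusted p = 0.923). CAR (Nr1i3) had 1339 and 1404 in AB6F1, against 1645 and 2015 in B6AF1. Both AB6F1 livers were lower for CAR, at -0.41 ± 0.15 (limma adjusted p = 0.452), as was so for 18.7% of all genes tested. Hnf4a was at 0.02 ± 0.12 and Rxra at -0.22 ± 0.13. Nr0b2, a corepressor of nuclear receptors that bile acids induce, was at -1.17 ± 0.38 (limma adjusted p = 0.408), with unlike AB6F1 signals of 1336 and 3336.

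Other PXR and CAR targets gave no common direction. Of 28 listed, 21 were tested, 9 higher and 12 lower, with a median of -0.03. By limma 0 passed, and 2 had an unadjusted p under 0.05. Ces2a, a carboxylesterase, was nearest to passing at -0.84 ± 0.14 (limma adjusted p = 0.116), with 8707 and 10774 in AB6F1 against 17541 and 17045 in B6AF1. Cyp2c37, a fatty acid and drug-metabolising cytochrome, was at -0.60 ± 0.16 (limma adjusted p = 0.331). Cyp2b10, the classic CAR target, had 491 and 1721 in AB6F1, against 545 and 420 in B6AF1, so that AB6F1 replicate 2 alone stood high. Electron donors and haem enzymes had a median of -0.05 over 12 tested, of which 0 passed limma and 1 had an unadjusted p under 0.05. That 1 was Hmox1, which degrades haem, at 1.03 ± 0.30 (limma adjusted p = 0.370). Cytochrome b5 (Cyb5a) was at 0.00 ± 0.12, and Alas1, the rate-limiting enzyme of haem synthesis, was at 0.58 ± 0.48 (limma adjusted p = 0.735).

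Other female-predominant liver genes had mostly positive log2 differences, as the shared probe set did. Of 20 listed, none a Cyp3a, 13 were tested, 12 had a positive log2 difference and 5 passed, all higher, with a median of 1.11. Of all genes tested 16 passed as higher, or 0.136%. The list was chosen with earlier results of these data known, so its counts do not measure enrichment. Sult2a2 and Sult3a1 are among the 5 that passed. The sulfotransferase Sult2a2 had 7771 and 13875 in AB6F1, against 24.8 and 65.4 in B6AF1, and the sulfotransferase Sult3a1 had 1003 and 535.5 in AB6F1, against 29.1 and 42.1 in B6AF1. The mean log2 signal of both genes in B6AF1 lay below the filter, so they were tested only through AB6F1 and no size is given for their rise. Cyp2b13, a cytochrome, rose by 4.03 on the log2 scale. Hao2 and Abcd2, a peroxisomal oxidase and transporter, rose by 1.64 and 1.89. Cyp2b9, at 1.11 ± 0.32, did not pass (limma adjusted p = 0.370). Cyp39a1, an oxysterol hydroxylase, was the 1 with a negative log2 difference, at -1.08 ± 0.21 (limma adjusted p = 0.175). Order among the AB6F1 livers was not common to the list: Sult3a1 was higher in replicate 1, as were the shared probe set and Cyp3a44, while Sult2a2 was higher in replicate 2.

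Male-predominant liver genes lay on the opposite side. All 20 tested had a negative log2 difference, with a median of -1.18, and 3 passed, where 0.0766% of all genes passed as lower: Cyp7b1, an oxysterol hydroxylase, fell by 1.89 on the log2 scale, Susd4, a complement regulator, fell by 2.46, and Slco1a1, an organic anion transporter, had 107.5 and 11.2 in AB6F1, against 7166 and 4197 in B6AF1. The mean log2 signal of Slco1a1 in AB6F1 lay below the filter, so no size is given for its fall. This list, too, was chosen with earlier results of these data known. With an array left out 1 liver remains in a cross, so no counts are given for those fits. In both sex-pattern lists the number past the test fell with either B6AF1 array left out and rose with either AB6F1 array left out.

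Regulators of this sex pattern and of growth hormone signalling were split, 6 higher and 6 lower of 12 tested, with a median of -0.06. Socs3, a feedback inhibitor of cytokine and growth hormone signalling, was the 1 that passed, at 1.70 ± 0.19 (limma adjusted p = 0.0262). Of all genes, 0.136% passed as higher. By limma 4 of the 12 had an unadjusted p under 0.05, against 9.72% of all genes. These were Socs3, Trim24, Igf1 and Ghr. Igf1 was at -0.32 ± 0.11 (limma adjusted p = 0.437). Stat5b, which carries the growth hormone signal to the nucleus, was at -0.16 ± 0.15 (limma adjusted p = 0.759). Bcl6, a repressor that is higher in male liver, had unlike B6AF1 signals of 330 and 1942 and was at -0.46 ± 0.72. The growth hormone receptor (Ghr) was at -0.30 ± 0.11 (limma adjusted p = 0.464) and Trim24, a female-biased coregulator, at 0.60 ± 0.19 (limma adjusted p = 0.384).

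Inflammation is known to lower Cyp3a11 in mice, so acute-phase and cytokine genes were set beside it. Of 22 tested, 15 had a positive log2 difference and 2 passed as higher, Saa2 and Socs3, against 0.136% of all genes, with a median of 0.28. The probe sets of Saa2 and Socs3 both have the suffix _x_at. The serum amyloid Saa2 had 5786 and 3338 in AB6F1, against 549 and 566 in B6AF1. Lcn2, a siderophore-binding protein, had 6539 and 1107 in AB6F1, against 158 and 497 in B6AF1. The part of inflammation in the Cyp3a11 values was not tested. Il6 and Tnf lay below the filter. The number of the list past the test fell with either B6AF1 array left out and rose with either AB6F1 array left out. Those fits keep 1 liver in a cross, so no counts are given for them.

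**Figure D3:**
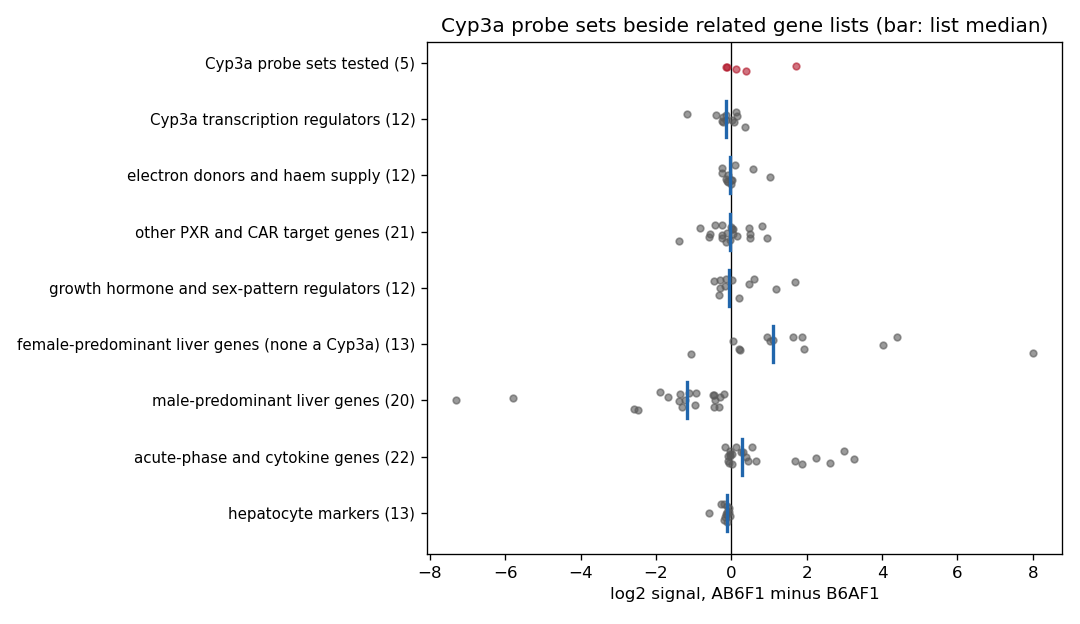
Log2 difference, AB6F1 minus B6AF1, of the 5 family probe sets above the filter (red) and of every tested gene of 8 lists (grey; number tested in brackets, blue bar the list median). The shared probe set lies at 1.71 and the other 4 between -0.14 and 0.39, while the female-predominant list has its median at 1.11 and the male-predominant list at -1.18.

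The genes whose 4 values, centred on their own mean, were most like a member's were found by root mean square distance on the log2 scale over the 4 arrays. Nearest to Cyp3a11 were Trnau1ap, Rbm42 and Jcad, at 0.009 to 0.015. Nearest to Cyp3a25 were Sin3b, Atp5b and Atp5d, at 0.009 to 0.010, and nearest to Cyp3a13 were Tapbp, Snrnp35 and Rbbp5, at 0.010 to 0.017. Cyp3a44 had Oit3, Prelid2 and 4933432I09Rik at 0.031 to 0.042. This describes likeness over 4 arrays only.

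**Figure D4:**
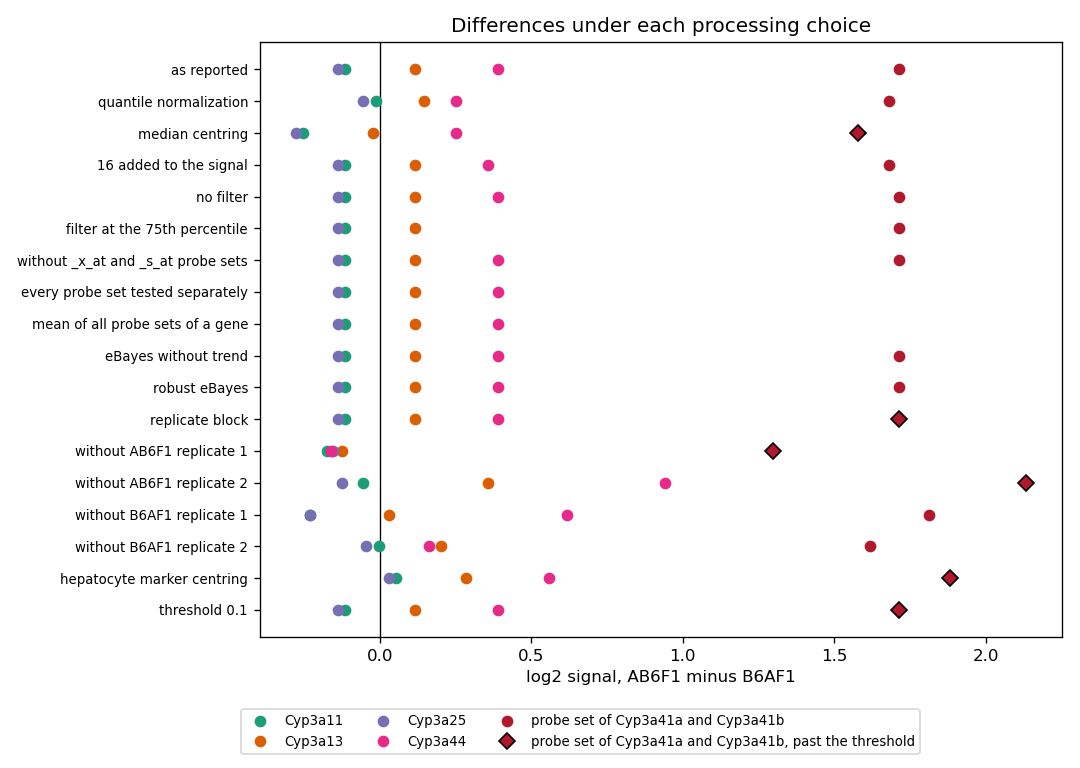
Log2 difference, AB6F1 minus B6AF1, of the 4 tested members and the shared probe set (colours) under each processing choice (rows). Diamonds mark values past the Benjamini-Hochberg threshold. In rows with an array left out 1 liver remains in a cross, and diamonds there are not read as calls. The shared probe set stays between 1.30 and 2.13, and Cyp3a13 and Cyp3a44 fall below 0 without AB6F1 replicate 1, at -0.13 and -0.16.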

How the data were processed

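The authors deposited MAS5 intensity values on a linear scale, per the submitters' processing notes (no version given). From the values, arrays were scaled to a mean of 500 after trimming 2% of probe sets at either end. Scanner files were not used here. AB6F1 arrays had median signals of 75.9 to 77.9, and B6AF1 arrays of 67.2 to 72.8; the number of arrays limits the precision.

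Of 45101 probe sets 64 were controls; 34945 had 1 gene symbol, 932 several and 9160 none, and 34741 matched the RefSeq table of GRCm38.p6 by gene identifier. The brightest probe set by mean log2 signal stood for a gene, and genes dimmer than the median probe set, 60.9, were left out. Log2 signals without a pseudocount were fitted in limma 3.58.1 (R 4.3.3, eBayes with trend, two-sided) over 11749 genes, with Benjamini-Hochberg adjustment at 0.05, and again over 22519 probe sets for the shared one. The fit was tested on simulated data. Promoters were aligned with Biopython 1.88, ends free.

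The members and lists were chosen with earlier results of these data known. Named were all members and, per list, genes past the test and up to 4 of smallest p, then Nr1i2, Nr1i3, Stat5b and Bcl6. Named after their values were seen were Cyb5a, Hnf4a, Cyp2b10, Alb, Ttr, Rhbg, Glul, Il6, Tnf, Marco, Timd4 and the gut markers. Por had no probe set of 1 symbol. Same-numbered livers did not deviate together (r across genes -0.027), and the labels link no numbers. Alternatives were other scalings, filters, probe set rules, variance moderation, thresholds, a replicate block and each array left out.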

Additional observations from a re-analysis of the deposited data

How the results depend on the processing

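No member passed the test under any of the 17 alternatives. Among the 5 family probe sets above the filter 0 passed as reported. The shared probe set of Cyp3a41a and Cyp3a41b passed under median centring, under hepatocyte marker centring and at a threshold of 0.1. It also passed with the replicate block (limma adjusted p = 0.0023, log2 difference 1.71). With an array left out 1 liver remains in a cross, so no call on this probe set is given there. With the block 62 genes passed in place of 25. Without the intensity trend 0 genes passed limma (1044 had an unadjusted p under 0.05), and the shared probe set had an adjusted p of 0.509. Sign changes were seen for Cyp3a13 under median centring (-0.021), for Cyp3a11 (0.053) and Cyp3a25 (0.029) under hepatocyte marker centring, and with an array left out for Cyp3a13 (-0.13 to 0.36) and Cyp3a44 (-0.16 to 0.94), both below 0 without AB6F1 replicate 1; the cause was not tested. Median centring moved the median of all genes by -0.14 and hepatocyte marker centring by 0.17, and each moves the members by the same amount as the other genes. Cyp3a44 was left out by the filter at the 75th percentile, and Cyp3a16 was tested only without a filter, since both are dim. The count of all genes past the test ran from 0 to 242 over the alternatives.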
